A study of Glycine soja with 14 samples.

Results

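The set described here holds 240 probe sets of wild soybean leaves that have no gene name and whose signal was higher at 6, 12 and 24 h in sodium bicarbonate than at 0 h. A probe set is a group of short oligonucleotides on the array that together read 1 transcript or a few alike ones. Eligible were the 35547 soybean probe sets, of 37593, whose annotation gives no symbol or only a LOC number, the locus number that NCBI gives to a gene without a published name. Each array was scaled to a common median, values were taken as log2(intensity + 16), and the mean at 0 h was subtracted. Members had a difference of at least 0.7 at each of 6, 12 and 24 h, with all 6 arrays of these times above both 0 h arrays. The limit of 300 members in the rule was not reached. The rule took 0.675% of the eligible probe sets, 154 with no symbol and 86 with a LOC symbol. Members were chosen by their levels at 0, 6, 12 and 24 h, so differences between the later times and 0 h are described without a test.

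Bicarbonate in the root medium raises its pH and brings in sodium, and iron and phosphate become harder for roots to take up at alkaline pH. Leaves meet such a stress through the roots, by ions, water status and hormones that travel in the xylem, and transcripts can answer for a short time or stay changed. Genes that stay changed under a long stress include, in many plants, transcription factors such as those of the NAC family. The 240 probe sets carry no names that would tell their roles.

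The leaves came from 21-day-old seedlings of Glycine soja, the wild relative of cultivated soybean, line G07256. The treated groups were sampled 0.5, 1, 3, 6, 12 and 24 h after seedlings were moved into quarter-strength Hoagland's solution with 50 mM NaHCO3 at pH 8.5, and the 0 h group had no bicarbonate. All groups shared the line, the nutrient solution and a cycle of 12 h light and 12 h dark. Each of the 7 times had 2 arrays, 14 in all, and each array held RNA pooled from the leaves of 3 plants. The array is 1-colour, with biotin-labelled RNA of the whole leaf, so more cells of a type and more RNA per cell cannot be told apart. No untreated leaves matched the later hours, so treatment cannot be told apart from time of day except at 24 h, a full day after 0 h. Whether the 0 h seedlings were also moved to a new box is not given in the sources used here.

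Deposited intensities summed to 7413137 to 8230026 per array, and replicate arrays correlated at 0.965 to 0.985 across probe sets. The label of leaf tissue was set against marker genes. Of 13 chloroplast symbols listed, 4 were on the array with 12 probe sets, and 9 of these lay above background on all 14 arrays. Their summed intensity was 24380 to 48266 at 6, 12 and 24 h, against 50811 to 51085 at 0 h. Of 10 probe sets of seed genes, 7 lay below background on all arrays and none lay above it on all. None of the 9 nodule and root symbols listed was found in the annotation. The part of the chloroplast markers in the results below was not tested.

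The members were higher than at 0 h well before 6 h, but not evenly. Their median log2 difference from 0 h was 0.73 at 0.5 h, 0.19 at 1 h, 0.81 at 3 h, 1.14 at 6 h, 1.33 at 12 h and 1.02 at 24 h. Over all 37593 soybean probe sets the medians lay between -0.04 and -0.01 at the same times. At 0.5 h 234 of 240 members had a mean above that of 0 h (97.5%, against 47.3% of all soybean probe sets), and at 3 h 236 did (98.3%, against 44.7%). The count at 1 h was 183 (76.3%, against 49.1%). Both treated arrays lay above both 0 h arrays for 184 members at 0.5 h, where 23.1% of all soybean probe sets did so. At 1 h 75 members did, against 16.8% of all, and at 3 h 182 did, against 18.8%. The rule asked that the 0 h arrays be low, and these 3 comparisons share them, so the counts are a description.

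**Figure D1:**
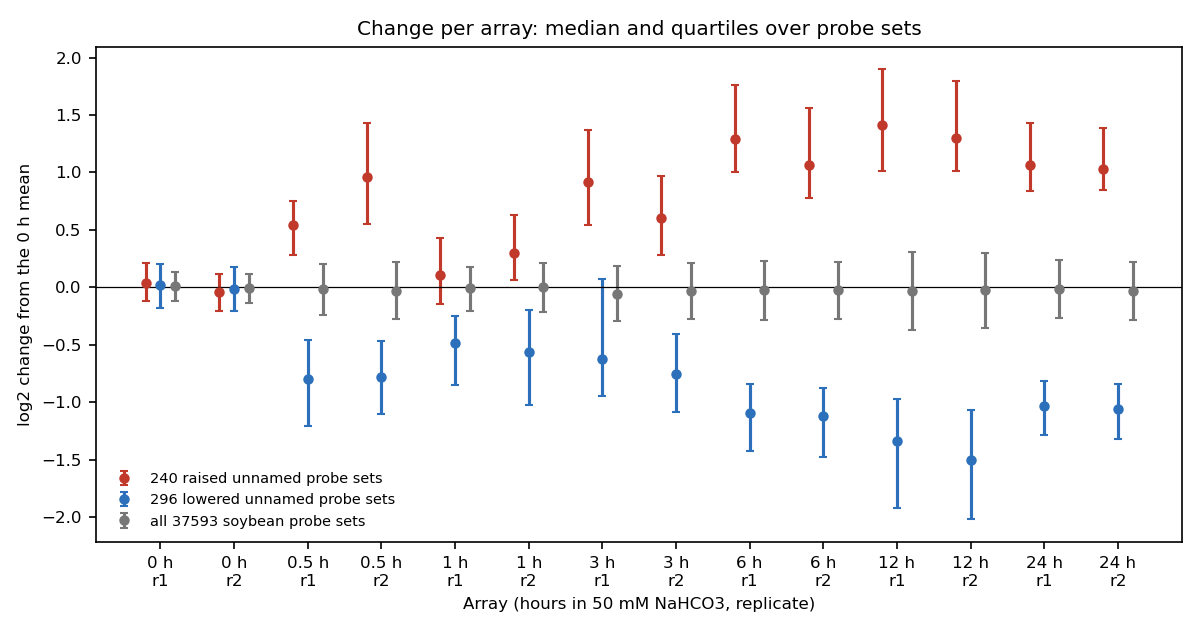
Median (point) and quartiles (bars) of the log2 difference from the 0 h mean on each of the 14 arrays, for the 240 raised probe sets, for 296 unnamed probe sets lowered by the same thresholds, and for all soybean probe sets; r1 and r2 are the replicates. The raised probe sets stand at medians of 0.54 and 0.96 on the 0.5 h arrays, 0.10 and 0.30 on the 1 h arrays and 1.03 or more from 6 h on.

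The 2 arrays of a time differed in how far the members stood from 0 h. Each array is a pool of plants of its own, so differences between plants and between hybridizations cannot be told apart. On the 0.5 h arrays the member median was 0.54 in replicate 1 and 0.96 in replicate 2, and 182 members (75.8%, against 48.1% of all soybean probe sets) were higher in replicate 2. The order was the other way at 3 h, with medians of 0.92 and 0.60 and 164 members higher in replicate 1 (68.3%, against 44.1%). At 24 h the 2 arrays lay close, at 1.06 and 1.03. Many members shared the direction of the replicate difference, so counts over members are not counts of independent events.

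At 0 h the members covered a wide range of brightness. Their median intensity was 51.2, against 56.8 for all soybean probe sets and 198 for the 296 eligible probe sets lowered by the mirrored thresholds. Background was set on each array at the 95th percentile of the probe sets for 2 other organisms. On both 0 h arrays 164 members (68.3%) lay above it, against 64% of all soybean probe sets, and 46 members (19.2%) lay above it on neither. On all arrays of 6, 12 and 24 h 236 members lay above background. For the 46 dim members a fold against 0 h is only a lower limit and is given as "at least".

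A LOC symbol was attached to 86 of 240 members (35.8%), against 19.7% of the eligible probe sets. The rule took 1.23% of probe sets with a LOC symbol and 0.539% of those with no symbol. Probe sets whose suffix (_s_at) marks probes shared by several transcripts made up 51 members (21.3%), against 8.91% of all soybean probe sets. The signal of such a probe set cannot be given to 1 gene. The 240 probe sets came from 211 sequence clusters, and the 86 with a LOC symbol stand for 70 genes, so some members are repeated readings of 1 gene.

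The smallest of a member's 3 differences ranged from 0.70 to 2.91. It was 1 or more for 78 members and 2 or more for 8, while 72 members lay between 0.7 and 0.8. Just inside the threshold stood Gma.1447.1.S1_at at 0.7002 and GmaAffx.39113.1.S1_at at 0.702. Just outside it stood Gma.6955.1.A1_at (LOC100780934) at 0.699 and Gma.15698.1.A1_at (LOC100500480) at 0.698, so the set has no gap at its edge. Another 25 eligible probe sets reached 0.7 at all 3 times but had an array that overlapped 0 h.

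The 8 members with the highest smallest difference are shown array by array. The leading probe set, GmaAffx.90642.1.S1_s_at (LOC100804784), had scaled intensities of 52.8 and 37.0 at 0 h, 178 and 1064 at 0.5 h, 21.3 and 72.7 at 1 h, 348 and 170 at 3 h, 1146 and 509 at 6 h, 941 and 527 at 12 h and 514 and 374 at 24 h. Both arrays of 0.5 h and of every time from 3 h on lay above both 0 h arrays, while at 1 h 1 array lay below them and 1 above, and its mean was 18.4-fold that of 0 h at 6 h, 16.3-fold at 12 h and 9.88-fold at 24 h. Gma.1968.1.S1_at, with no symbol, had 44.7 and 47.2 at 0 h, 103 and 459 at 0.5 h, 40.2 and 66.9 at 1 h, 193 and 83.0 at 3 h, 402 and 357 at 6 h, 572 and 583 at 12 h and 525 and 387 at 24 h. Its 1 h arrays too lay on either side of its 0 h arrays, and its mean was highest at 12 h, at 12.6-fold the 0 h mean.

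The shared-probe set GmaAffx.68672.1.S1_s_at (LOC100306373) had 75.3 and 74.8 at 0 h, 160 and 442 at 0.5 h, 113 and 177 at 1 h, 385 and 125 at 3 h, 642 and 864 at 6 h, 649 and 422 at 12 h and 557 and 398 at 24 h. Every treated array of it lay above both 0 h arrays, and its mean was 10.04-fold that of 0 h at 6 h. Gma.361.1.S1_at had 141 and 21.7 at 0 h, 181 and 209 at 0.5 h, 129 and 38.0 at 1 h, 69.9 and 173 at 3 h, 645 and 357 at 6 h, 271 and 796 at 12 h and 356 and 400 at 24 h. Its 0 h arrays differed widely, with 1 of them below background, so its folds of 6.15, 6.54 and 4.64 at 6, 12 and 24 h are less precise than those of the 3 before it. Gma.18044.1.S1_a_at had 166 and 125 at 0 h, 92.2 and 334 at 0.5 h, 206 and 251 at 1 h, 621 and 180 at 3 h, 901 and 1097 at 6 h, 764 and 1020 at 12 h and 958 and 666 at 24 h. Its 1 h arrays lay between its 0.5 h arrays, and its 3 late means were 5.595- to 6.88-fold that of 0 h.

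The other 3 of the 8 were not above background at 0 h on either array. Gma.4533.1.S1_at (LOC100306711) had 7.76 and 23.3 at 0 h, 35.2 and 108 at 0.5 h, 23.9 and 82.5 at 1 h, 107 and 61.1 at 3 h, 136 and 139 at 6 h, 174 and 171 at 12 h and 169 and 185 at 24 h. Its replicates at 6, 12 and 24 h lay close together, and it was at least 5.36-, 6.74- and 6.91-fold higher than at 0 h at those times. GmaAffx.68386.1.S1_at (LOC100305943) had 8.18 and 16.4 at 0 h, 15.4 and 133 at 0.5 h, 7.54 and 23.3 at 1 h, 219 and 39.7 at 3 h, 141 and 101 at 6 h, 236 and 130 at 12 h and 108 and 96.3 at 24 h. At 12 h it was at least 6.83-fold higher, and its 0.5 h and 3 h arrays differed among themselves more than its 6 h and 24 h arrays did. Gma.7871.1.S1_at (LOC100306340) had 9.19 and 3.69 at 0 h, 18.6 and 114 at 0.5 h, 8.04 and 45.5 at 1 h, 226 and 40.3 at 3 h, 101 and 57.6 at 6 h, 175 and 161 at 12 h and 197 and 209 at 24 h. It was at least 2.98-fold higher than at 0 h at 6 h, 6.57-fold at 12 h and 7.92-fold at 24 h.

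**Figure D2:**
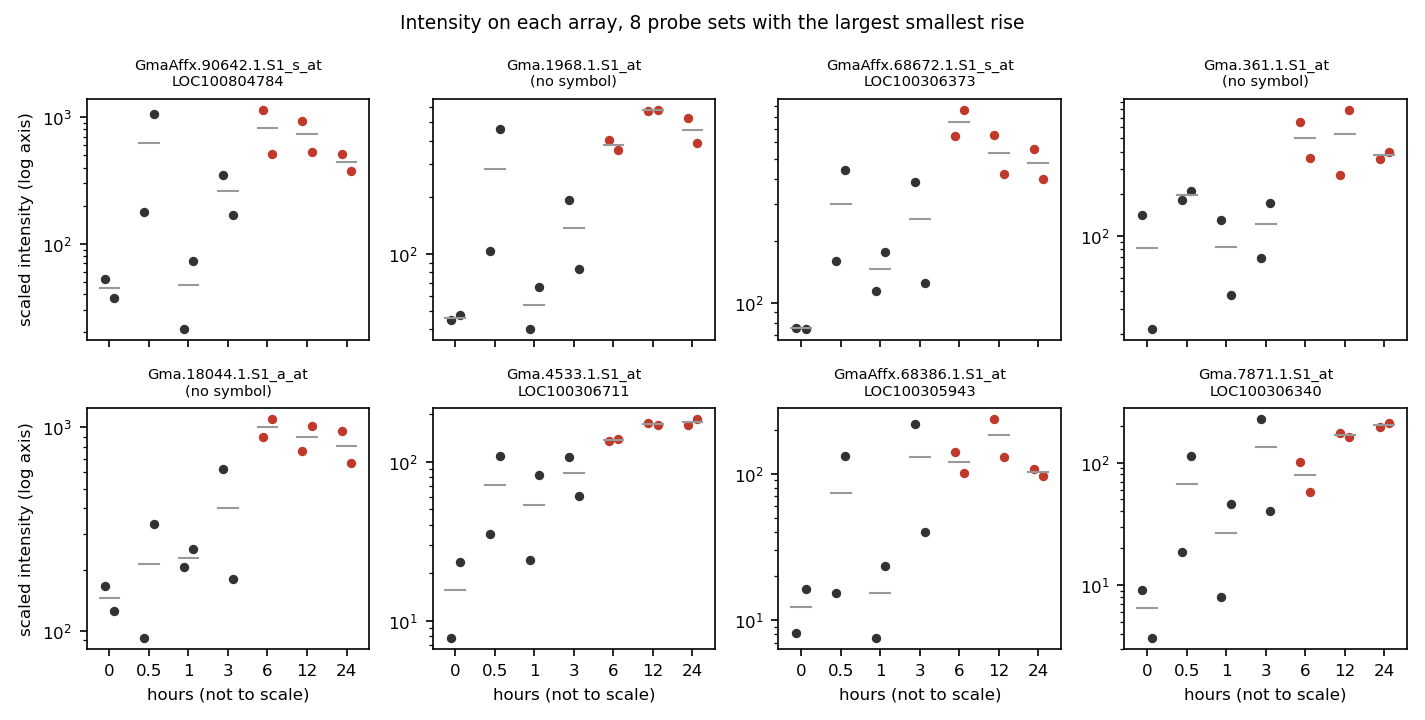
Scaled intensity (log axis) on each of the 2 arrays per time (points) and their mean (grey line) for the 8 raised probe sets with the highest smallest difference from 0 h; red points are the 6, 12 and 24 h arrays that chose them. All 6 red points lie above both 0 h points in every panel, and the 0.5 and 3 h replicates often lie far apart.

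The differences among 0.5, 1 and 3 h used no array of the rule and were tested. The spread in each test came from all 14 arrays, those of the rule included. The p-values are therefore not fully separate from the choice of members. The fit was limma's, with 7 group means over all 14 arrays, p-values two-sided and adjusted by the Benjamini-Hochberg method over all soybean probe sets, and a threshold of 0.05. The median SE of a step was 0.32 log2 for members, against 0.19 for all soybean probe sets, so the error of a member was the larger.

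The members were lower at 1 h than at 0.5 h. Between 0.5 and 1 h 13 members fell and none rose (5.42% lower), where 1.37% of all soybean probe sets fell and 2.38% rose. At an unadjusted p under 0.05, 84 were lower (35%) and 1 higher, where 10.9% of all soybean probe sets were lower and 12.9% higher. The median change was -0.56, against 0.02 for all soybean probe sets, and 200 members had a lower mean at 1 h. Both 1 h arrays lay below both 0.5 h arrays for 124 members (51.7%), where 27.5% of all soybean probe sets did so. No member was called without replicate 2 of 0.5 h or of 1 h, 1 without replicate 1 of 1 h, and 3 when either array of 24 h was left out. The count was 8 with an array of 12 h left out, 21 with one of 0 h and 27 without replicate 1 of 0.5 h. With log2(value + 1) 3 members were called, with the replicate number as a block 7, without scaling 20, and with only the 2 groups compared none.

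Between 1 and 3 h the direction turned. Of the 240 members 15 rose and none fell (6.25% higher), where 1.23% of all soybean probe sets rose and 1.15% fell. At an unadjusted p under 0.05, 92 were higher (38.3%) and 2 lower, where 9.05% of all soybean probe sets were higher and 12% lower. The median change was 0.54, against -0.04 for all soybean probe sets, and 219 members had a higher mean at 3 h. Both 3 h arrays lay above both 1 h arrays for 127 members (52.9%), where 20.7% of all soybean probe sets did so. No member was called without replicate 2 of 1 h, 1 without replicate 1 of 1 h, 2 without replicate 1 of 3 h and 9 without either 24 h array. With log2(value + 1) 7 members were called, and with only the 2 groups compared none.

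The fall to 1 h and the rise from it share the 1 h arrays, so a low 1 h reading counts in both. On group means 190 members (79.2%) were lower at 1 h than at both 0.5 and 3 h, where 31.7% of all soybean probe sets were. For 90 members (37.5%) both 1 h arrays lay below all 4 arrays of 0.5 and 3 h, where 11.8% of all did so. Called in both steps were 7 members (2.92%), against 0.165% of all soybean probe sets. Array background was 25.3 and 25.9 at 0 h, 17.5 and 18.0 at 0.5 h, 22.8 and 28.6 at 1 h and 20.5 and 21.6 at 3 h, so it was highest on the arrays of 0 and 1 h, where the members were low. The spike-in control BioB-3 read 213 and 202 at 0.5 h, 503 and 609 at 1 h and 560 and 479 at 3 h. With the median of the 2 other organisms' probe sets subtracted from each array before log2, a setting chosen after seeing the data, 13 members were called from 0.5 to 1 h and 16 from 1 to 3 h. That median was 6.09 and 6.34 at 0.5 h, 7.85 and 9.25 at 1 h and 6.82 and 7.40 at 3 h. The subtraction therefore took out less than the array background given above. The part of the differences in spike-in signal was not tested.

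Between 0.5 and 3 h directly 1 member, GmaAffx.80510.1.S1_at (LOC100818568), rose and none fell (0.417% higher), where 1.54% of all soybean probe sets rose and 1.8% fell. At an unadjusted p under 0.05, 22 were higher (9.17%) and 16 lower (6.67%). Of all soybean probe sets 8.93% were higher and 10.6% lower. The median change was 0.08, but -0.14 without replicate 1 of 0.5 h and -0.11 without replicate 1 of 3 h. The count was 3 without either 0 h array and 10 without replicate 2 of 3 h. Over the 3 steps 22 members (9.17%) were called at least once, against 7.36% of all soybean probe sets. The brighter Gma.8187.1.S1_a_at, another member with the symbol LOC100818568, changed by 1.46 ± 0.40 (SE) from 0.5 to 3 h. It was not called (limma adjusted p = 0.0734). GmaAffx.80510.1.S1_at had 73.6 and 35.9 at 0 h, 63.3 and 42.2 at 0.5 h, 83.4 and 46.4 at 1 h, 185 and 130 at 3 h, 123 and 123 at 6 h, 155 and 110 at 12 h and 133 and 86.6 at 24 h. Of its 4 arrays of 0.5 and 1 h, 3 lay between the 0 h arrays and 1 above them, and its rise of 1.33 ± 0.32 (SE, limma adjusted p = 0.045) came at 3 h. That call ended without any array of 0.5, 3, 6, 12 or 24 h, with adjusted p of 0.0505 to 0.283.

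**Figure D3:**
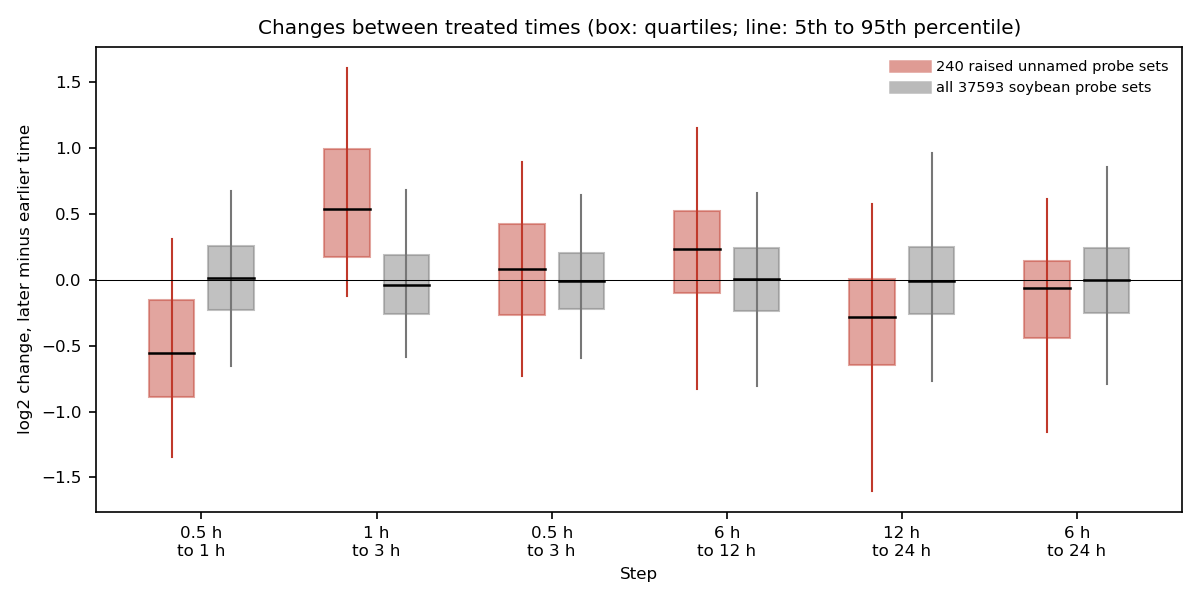
Log2 change of the 240 raised probe sets (red) and of all soybean probe sets (grey) in the 6 steps between treated times; the box gives the quartiles, the black bar the median and the line the 5th to 95th percentile. The red medians are -0.56 from 0.5 to 1 h, 0.54 from 1 to 3 h, 0.24 from 6 to 12 h and -0.28 from 12 to 24 h, and the grey medians stay within 0.05 of 0. The last 3 steps use arrays that chose the members.

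LOC100804784 showed the largest fall to 1 h. Its 1 h arrays of 21.3 and 72.7 lay below the 0.5 h arrays of 178 and 1064, a change of -2.99 ± 0.71 (limma adjusted p = 0.0438), with 1 of the 2 arrays of 1 h below background. The call ended without any of the arrays of 6, 12 or 24 h, the 1 h arrays or replicate 2 of 0.5 h, with adjusted p of 0.0509 to 0.335, and without that 0.5 h array the change was -1.75. Gma.8195.2.S1_a_at, with no symbol, read 65.9 and 58.0 at 1 h, against 152 and 400 at 0.5 h, a change of -1.76 ± 0.38 (limma adjusted p = 0.0361). This call ended without replicate 2 of 0.5 h (-1.11, adjusted p = 0.293), either 1 h array or either 24 h array (adjusted p of 0.056 to 0.161). At 0 h it read 71.3 and 72.7, so the 1 h arrays lay just below the 0 h ones.

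The lowest adjusted p of the step to 1 h was that of GmaAffx.60439.2.S1_at, which was chosen after its values were seen. It read 54.4 and 67.3 at 0.5 h, 19.8 and 22.7 at 1 h and 42.7 and 56.3 at 3 h, with both 1 h arrays below background. At 1 h it was at least 2.37-fold lower than at 0.5 h (limma adjusted p = 0.0131), and at 3 h at least 1.92-fold higher than at 1 h (limma adjusted p = 0.0392). The largest rise to 3 h was that of GmaAffx.91812.1.S1_s_at (LOC100794117). It read 185 and 223 at 3 h, against 31.2 and 47.7 at 1 h, a change of 2.00 ± 0.33 (limma adjusted p = 0.0182). The call ended without either 1 h array or replicate 1 of 3 h, with adjusted p of 0.068 to 0.0841. Its 0 h arrays read 29.1 and 47.8 and its 0.5 h arrays 61.5 and 163, and at 12 and 24 h it stood at 81.5 to 102, below its 3 h level.

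LOC100170674 gave 4 of the 15 rises to 3 h. The array carries 8 probe sets with this symbol, 4 of them members, and all 4 were called from 1 to 3 h. From 0.5 to 1 h only Gma.4167.2.S1_a_at of these was called, and the others had limma adjusted p of 0.097 to 0.126. Gma.4167.2.S1_a_at read 8.38 and 8.39 at 0 h, 21.8 and 47.9 at 0.5 h, 10.6 and 3.57 at 1 h, 58.6 and 60.0 at 3 h, 60.9 and 31.8 at 6 h, 38.3 and 33.1 at 12 h and 27.9 and 28.0 at 24 h. It was below background on all arrays of 0 and 1 h and above it on all others, so its differences from 1 h are bounds, with the background of each 1 h array in place of the dimmer reading. It was at least 1.27-fold lower at 1 h than at 0.5 h (limma adjusted p = 0.0442) and at least 2.32-fold higher at 3 h than at 1 h (limma adjusted p = 0.0148). Without replicate 2 of 1 h the adjusted p of the rise was 0.0978, and without replicate 1 of 3 h 0.0663.

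The bright probe set of the gene, Gma.4167.2.S1_s_at, read 123 and 116 at 0 h, 134 and 260 at 0.5 h, 108 and 93.3 at 1 h, 330 and 316 at 3 h, 295 and 192 at 6 h, 254 and 323 at 12 h and 413 and 352 at 24 h. It rose by 1.54 ± 0.27 from 1 to 3 h (limma adjusted p = 0.0203), and unlike Gma.4167.2.S1_a_at it was highest at 24 h. GmaAffx.82642.4.S1_s_at rose by 1.54 ± 0.27 (limma adjusted p = 0.0218). Gma.4167.1.S1_a_at read 51.0 and 56.7 at 3 h, against 5.36 and 7.10 at 1 h, where both arrays lay below background, and was at least 2.11-fold higher at 3 h (limma adjusted p = 0.0375). Probes of these sets can share transcripts, so they are not 4 separate observations.

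Among the 3 late times the highest mean lay at 6 h for 61 members (25.4%), at 12 h for 134 (55.8%) and at 24 h for 45 (18.8%). Over all soybean probe sets the shares were 32%, 34.3% and 33.7%. Differences from 0 h were also spread most widely at 12 h over all soybean probe sets, with quartiles of -0.26 and 0.21 at 6 h, -0.34 and 0.29 at 12 h and -0.26 and 0.21 at 24 h. The members were chosen on these arrays, so the shares are a description. Members with their peak at 6 h had a median difference from 0 h of 1.62 at 6 h, 1.06 at 12 h and 0.97 at 24 h. Those with their peak at 12 h had 1.01, 1.60 and 0.97, and those with their peak at 24 h had 0.97, 1.07 and 1.44. In each class the median was lower at 1 h than at 0.5 and 3 h, with 0.90, 0.17 and 0.92 at 0.5, 1 and 3 h for the 6 h class, 0.68, 0.19 and 0.79 for the 12 h class and 0.72, 0.22 and 0.85 for the 24 h class. The classes were made from the late levels, and differences between them were not tested.

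**Figure D4:**
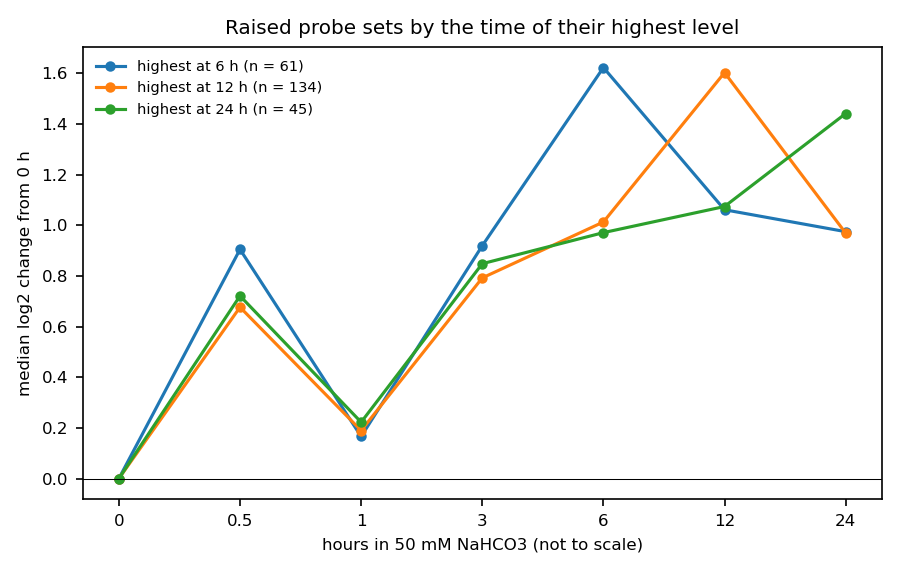
Median log2 difference from 0 h by time for raised probe sets with their highest mean at 6 h (n = 61), 12 h (n = 134) or 24 h (n = 45); times are evenly spaced on the axis. The 3 lines stand at 0.17 to 0.22 at 1 h and 0.79 to 0.92 at 3 h, and part at 6 h by construction.

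The rule used the 6, 12 and 24 h arrays, so differences between these times are described and no test result is given. Members named below for a late step were picked among those with a limma adjusted p under 0.05 in it. That pick used arrays of the rule, so it is no support for the differences. The median difference of 12 h from 6 h was 0.24, against 0.01 for all soybean probe sets, and 161 members had the higher mean at 12 h. Both 12 h arrays lay above both 6 h arrays for 102 members (42.5%), where 29% of all soybean probe sets had that order. The median difference of 24 h from 12 h was -0.28, against -0.01 for all, and 178 members had the lower mean at 24 h. Both 24 h arrays lay below both 12 h arrays for 120 members (50%), where 29.9% of all did so. The median difference of 24 h from 6 h was -0.06, and without replicate 1 of 6 h it was 0.02.

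Some members stood far higher at 12 h than at 24 h, where their means were 1.78- to 2.66-fold those of 0 h. Gma.7549.1.S1_at, with no symbol, read 112 and 171 at 0 h, 242 and 910 at 0.5 h, 51.7 and 352 at 1 h, 453 and 612 at 3 h, 3567 and 2854 at 6 h, 3639 and 2819 at 12 h and 343 and 410 at 24 h. It was the brightest of the named members, 22.7-fold the 0 h mean at 6 h, 22.8-fold at 12 h and 2.66-fold at 24 h. Its arrays of 6 and 12 h lay above all others, and the log2 difference of 24 h from 12 h was -3.04 ± 0.68 (SE).

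Gma.12045.1.S1_at (LOC547877) was high on the 12 h arrays above all others. It read 63.5 and 15.96 at 0 h, 74.0 and 45.8 at 0.5 h, 17.8 and 47.3 at 1 h, 239 and 191 at 3 h, 92.3 and 262 at 6 h, 1330 and 494 at 12 h and 70.7 and 92.1 at 24 h. Its 12 h mean stood 2.26 ± 0.56 (SE) log2 units above the 6 h mean, and 1.56 without replicate 1 of 12 h. At 0 h 1 of its 2 arrays lay below background.

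Gma.559.1.A1_at, with no symbol, had a similar course. It read 48.4 and 12.6 at 0 h, 74.8 and 114 at 0.5 h, 30.9 and 61.0 at 1 h, 50.9 and 149 at 3 h, 263 and 115 at 6 h, 706 and 654 at 12 h and 49.5 and 59.2 at 24 h. Both 12 h arrays lay above all its others, and its 12 h mean stood 1.87 ± 0.49 (SE) log2 units above the 6 h mean. At 24 h its mean was 1.78-fold that of 0 h, near the edge of the rule. At 0 h 1 of its 2 arrays (12.6) lay below background, and its 24 h arrays lay little above the other (48.4).

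Among the 61 members highest at 6 h were 2 probe sets of 1 sequence cluster. Gma.398.1.A1_at (LOC100811127) read 16.2 and 4.91 at 0 h, 38.0 and 50.5 at 0.5 h, 29.4 and 15.5 at 1 h, 29.2 and 43.2 at 3 h, 193 and 131 at 6 h, 19.4 and 35.2 at 12 h and 53.2 and 57.0 at 24 h. Both 12 h arrays lay below both 6 h arrays, with a log2 difference of -2.04 ± 0.28 (SE). Its partner Gma.398.2.S1_at read 15.96 and 4.09 at 0 h, 29.3 and 39.3 at 0.5 h, 19.5 and 9.07 at 1 h, 40.6 and 36.5 at 3 h, 190 and 127 at 6 h, 20.6 and 43.3 at 12 h and 47.2 and 67.5 at 24 h. Its log2 difference of 12 h from 6 h was -1.88 ± 0.30 (SE). Both probe sets were below background at 0 h, and they gave similar values on every array.

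GmaAffx.2334.1.S1_at, with no symbol, read 15.9 and 17.9 at 0 h, 72.5 and 43.2 at 0.5 h, 11.8 and 48.5 at 1 h, 68.5 and 256 at 3 h, 168 and 247 at 6 h, 76.5 and 33.9 at 12 h and 23.1 and 57.5 at 24 h. Its highest values stood at 3 and 6 h, and the log2 difference of 24 h from 6 h was -2.04 ± 0.55 (SE).

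The 45 members highest at 24 h included probe sets that were dim before. GmaAffx.81362.1.S1_at, with no symbol, read 4.26 and 6.05 at 0 h, 16.6 and 6.85 at 0.5 h, 2.05 and 9.02 at 1 h, 82.3 and 4.17 at 3 h, 37.5 and 17.8 at 6 h, 14.03 and 30.8 at 12 h and 161 and 225 at 24 h. At 24 h it was at least 7.44-fold higher than at 0 h. On 1 of the 2 arrays at 6 h and at 12 h it was not above background, so its place in the set rests on dim values there.

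GmaAffx.68621.1.A1_at had 27.5 and 11.9 at 0 h, 47.4 and 52.9 at 0.5 h, 42.5 and 8.73 at 1 h, 329 and 29.3 at 3 h, 264 and 64.4 at 6 h, 129 and 75.8 at 12 h and 533 and 564 at 24 h. Its 24 h mean was 27.9-fold that of 0 h. At 0 h 1 of its 2 arrays lay below background, so that fold rests in part on a dim reading. The log2 difference of 24 h from 12 h was 2.29 ± 0.80 (SE). Its replicates differed widely at 1, 3 and 6 h and agreed at 24 h.

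Some members stood near their 0 h level on most of their 1 and 3 h arrays. Gma.3470.1.S1_at (LOC100808231) read 145 and 161 at 0 h, 197 and 349 at 0.5 h, 103 and 179 at 1 h, 124 and 149 at 3 h, 646 and 503 at 6 h, 493 and 449 at 12 h and 478 and 687 at 24 h. Its 1 and 3 h arrays stayed around the 0 h level and its late means were 3.07- to 3.799-fold higher. Gma.221.1.S1_at (LOC547865) read 58.1 and 49.7 at 0 h, 37.3 and 44.0 at 0.5 h, 46.5 and 53.9 at 1 h, 220 and 48.4 at 3 h, 151 and 168 at 6 h, 143 and 163 at 12 h and 113 and 84.7 at 24 h. Only replicate 1 at 3 h stood out among its early arrays. GmaAffx.35140.1.S1_at (LOC100777065) read 70.4 and 29.9 at 0 h, 62.2 and 110 at 0.5 h, 47.8 and 36.5 at 1 h, 62.6 and 30.7 at 3 h, 125 and 129 at 6 h, 127 and 264 at 12 h and 166 and 124 at 24 h. These 3 had the lowest median difference over 0.5, 1 and 3 h of all members.

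Gma.6573.1.S1_at (LOC100127418), the other of the 6 leading members with a LOC symbol, kept part of its level at 1 h. It read 41.2 and 60.6 at 0 h, 127 and 207 at 0.5 h, 86.2 and 166 at 1 h, 178 and 96.8 at 3 h, 258 and 496 at 6 h, 656 and 481 at 12 h and 267 and 205 at 24 h. Every treated array lay above both 0 h arrays, and its 12 h mean was 11.2-fold the 0 h mean.

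Some genes were read by several members. Each of these passed the rule, so their shared rise at 6, 12 and 24 h came from the choice. It does not show how repeatable a reading was. Of the 70 LOC genes 12 had more than 1 member, and for 7 of these 12 every probe set on the array was a member. LOC100306711 had 2 probe sets and both were members. The partner of Gma.4533.1.S1_at, GmaAffx.91072.1.S1_s_at, read 32.8 and 45.9 at 0 h, 46.0 and 139 at 0.5 h, 42.5 and 65.0 at 1 h, 161 and 94.5 at 3 h, 177 and 190 at 6 h, 224 and 256 at 12 h and 218 and 204 at 24 h. The 2 probe sets of the gene shared the order of their replicates at 0.5, 1 and 3 h.

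LOC100808320 and LOC100808512 each had 2 member probe sets, 3 of the 4 from 1 sequence cluster, and the 4 were high on the same arrays. Gma.3065.1.S1_s_at (LOC100808320) read 129 and 123 at 0 h, 217 and 669 at 0.5 h, 127 and 161 at 1 h, 862 and 236 at 3 h, 471 and 506 at 6 h, 1845 and 554 at 12 h and 594 and 417 at 24 h. Gma.5701.3.S1_at (LOC100808512) read 31.2 and 40.5 at 0 h, 72.9 and 202 at 0.5 h, 48.4 and 54.4 at 1 h, 309 and 76.7 at 3 h, 156 and 157 at 6 h, 623 and 206 at 12 h and 217 and 119 at 24 h. In all 4 probe sets replicate 2 was the higher at 0.5 h and replicate 1 the higher at 3 and 12 h, so the replicates differed in the same direction in each.

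**Figure D5:**
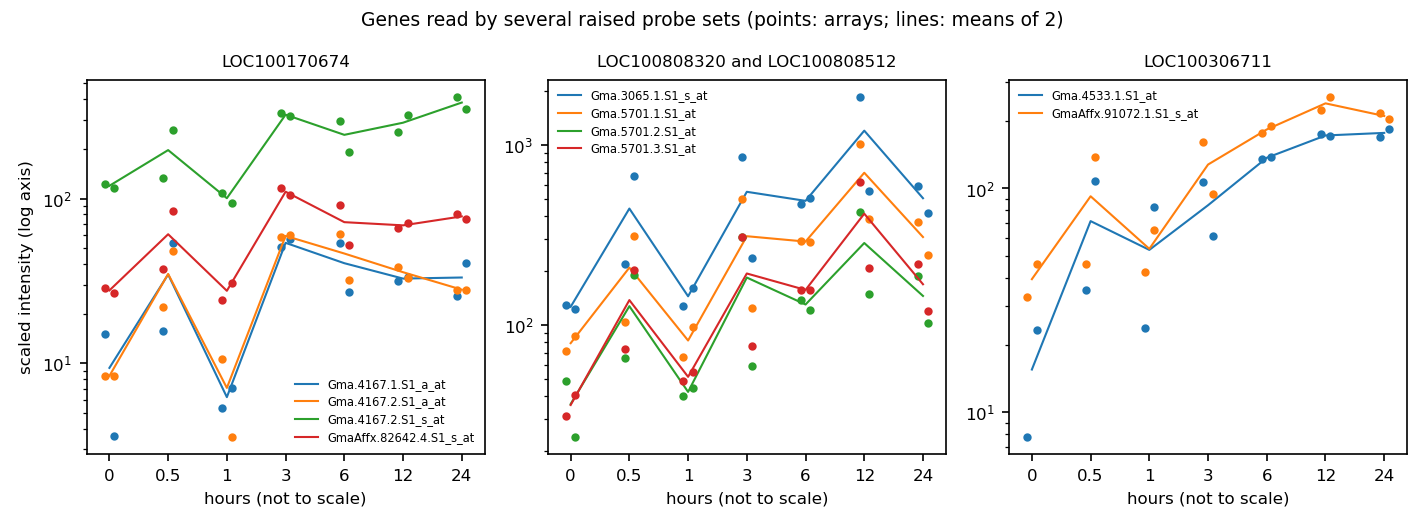
Scaled intensity (log axis) on each array (points) and the mean of the 2 arrays (lines) for probe sets of LOC100170674, of LOC100808320 and LOC100808512, and of LOC100306711; times are evenly spaced. Probe sets of 1 gene differ in level, and the 4 of LOC100170674 and the 4 of LOC100808320 and LOC100808512 have lower means at 1 h than at 0.5 and 3 h.

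Probe sets outside the set that read the same gene mostly moved the same way. Of the 70 genes 23 had other probe sets on the array, 34 in all, and 24 of these (70.6%) were above 0 h at 6, 12 and 24 h, against 24.1% of all soybean probe sets. Their median differences were 0.63 at 6 h, 0.56 at 12 h and 0.41 at 24 h, and none reached 0.7 at all 3 times. For sequence clusters the count was 65 of 92 other probe sets (70.7%). These probe sets lie outside the rule, but they were measured on the same leaves.

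Each replicate alone gave a wider set. The 0.7 was chosen with earlier results of these data known, and both replicates share the same sampling times. The shares below are therefore a description. With 1 array per time, a difference of 0.7 already puts the late array above the 0 h array. The condition on the order of arrays then asks nothing more. On the replicate 1 arrays 349 eligible probe sets reached 0.7 at 6, 12 and 24 h above 0 h, 163 of them members, which is 46.7% of the 349 and 67.9% of the 240. In the replicate 2 arrays, which that choice did not use, the 349 had medians of 0.65, 0.84 and 0.59 at 6, 12 and 24 h, and 274 (78.5%) were above 0 at all 3 times, against 25.8% of eligible probe sets. At 0.7 or more at all 3 times were 104 of them (29.8%), against 1.35%. The replicate 2 arrays chose 481, with 170 members (35.3% of the 481 and 70.8% of the 240). Of these 481, 286 (59.5%) were above 0 at all 3 times in replicate 1, against 25.1%, with medians of 0.61, 0.62 and 0.41, and 104 (21.6%) reached 0.7, against 0.982%.

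Among genes that do have names, 31 of 1676 probe sets (1.85%), for 23 symbols, met the same thresholds. Of the 370 probe sets with several symbols 6 did. NAC12, a transcription factor of the NAC family, led them, with 112 and 93.7 at 0 h, 145 and 357 at 0.5 h, 102 and 135 at 1 h, 147 and 160 at 3 h, 626 and 476 at 6 h, 400 and 506 at 12 h and 329 and 383 at 24 h for Gma.11065.1.S1_at. VPE2, a vacuolar processing enzyme, which is a protease of the plant vacuole, followed with 2 probe sets and smallest differences of 1.49 and 1.48. The next were MYB179 (1.16), a MYB factor, BZIP105 (1.15), a bZIP factor, CIF1 (1.10), SOYGBFA (1.05), a G-box binding factor, LOX7 (1.00), a lipoxygenase, BZIP71 (1.00) and LOX9 (0.93).

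By family, 5 of 29 lipoxygenase and jasmonate probe sets met the thresholds, all of LOX7 or LOX9, and 2 of 5 of trypsin inhibitors, KTI-2 and KTI-3. So did 3 of 8 of a list of cell death genes, from VPE2 and ERD15, and 3 of 89 of bZIP factors. Of NAC factors 2 of 30 did, both of NAC12, with smallest differences of 1.65 and 0.72. The counts were 2 of 102 for MYB factors and 2 of 103 for WRKY factors. Of P450 genes 1 of 40 did and of phenylpropanoid genes 1 of 49. No probe set did among 15 of heat shock factors, 18 of heat shock proteins, 42 of glutathione transferases, 32 of aquaporins, 20 of GASA peptides, 10 of SWEET sugar transporters, 18 of calcium sensors, 22 of oxidases and antioxidant enzymes, 14 of desaturases, 10 of nitrogen assimilation and 5 of SPK kinases. Over all named probe sets the share was 1.85%, and the shares of MYB and WRKY factors lay near it. At that share lists of 5 to 42 probe sets can easily hold none, so an empty list is no result about its family. The thresholds are the same as for the members and use the same arrays, so these counts are a description.

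The mirrored thresholds gave 296 eligible probe sets lowered at 6, 12 and 24 h (0.833%). Their median difference from 0 h was -0.80 at 0.5 h, -0.50 at 1 h, -0.68 at 3 h, -1.08 at 6 h, -1.38 at 12 h and -1.03 at 24 h. From 0.5 to 1 h 28 of them rose (9.46%, against 2.38% of all soybean probe sets) and 3 fell (1.01%, against 1.37%), with a median change of 0.22, against the -0.56 of the raised members. From 1 to 3 h 14 rose (4.73%, against 1.23%) and 23 fell (7.77%, against 1.15%), with a median of -0.14, against 0.54. The median was closer to 0 at 1 h than at 0.5 and 3 h in both sets, and whether the sets differ in the size of that move was not tested.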

How the data were processed

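The authors' deposited table gives linear intensity values for each probe set and array, with a range of 0.92 to 12812.33. Per the labels' protocols, TRIzol RNA was labelled with biotin for Affymetrix arrays. How the authors summarised and normalized probes is not given in the sources used here. Of its probe sets, 37593 are for soybean, 15820 for Phytophthora sojae, 7530 for Heterodera glycines and 227 are controls, which were left out.

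Symbols came from the array's public annotation, which can be old. The 370 probe sets with several symbols were not eligible. None of the identifiers matched the Glycine soja gene table (0), so no gene name, position or sequence is added.

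Arrays were scaled to a common soybean median of 56.4 and taken as log2(value + 16), which understates changes of dim probe sets. The rule's 0.7 and the families, lists and members were chosen with earlier results of these data known. Steps among 0.5, 1 and 3 h were tested with limma 3.58.1 in R 4.3.3 (lmFit, eBayes; 7 residual and 4.24 prior degrees of freedom), tested on simulated data, and 2 arrays per time limit precision. Steps among 6, 12 and 24 h were fitted alike and are given without p-values, since the rule used those arrays. Their adjusted p served only to pick members to name. Bounds ("at least") set the later mean against the higher, per 0 h array, of background and own signal.

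Members named were, by rule, the 8 with the highest smallest difference, the 3 largest at 6, 12 and 24 h, the 6 leading LOC symbols, the 2 largest rises and falls called per step, late steps included, the 2 on each side of the threshold, 10 named counterparts, and the 3 highest and 3 lowest early medians. Replicate numbers did not pair the samples (21 correlations between times, median -0.0524). Alternatives are given in the closing section.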

Additional observations from a re-analysis of the deposited data

Results flagged for a closer look

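Differences between 2 treated times passed the test for some members in each of the 3 steps tested, as the report describes, 13 members from 0.5 to 1 h, 15 from 1 to 3 h and 1 from 0.5 to 3 h. With 2 arrays per time, no array could be tested as an outlier within its group.

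Outside the soybean probe sets, 7 of the 23350 probe sets for the 2 other organisms (0.03%) met the same thresholds. They are 3 of Heterodera glycines and 4 of Phytophthora sojae. The largest, of Heterodera glycines, averaged 815 over the 6 arrays of 6, 12 and 24 h, against 6.21 at 0 h, and lay above background on 5 of the 6. The other 2 of that organism averaged 20.8, against 4.14, and 243, against 76.5. The 4 of Phytophthora sojae averaged 31.0, against 11.4 at 0 h, 17.5, against 2.18, 422, against 129, and 177, against 46.3. By the mirrored thresholds 70 of these probe sets were lowered.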

How the results depend on the processing

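Precision is limited by 2 arrays per time and, for the 46 members below background at 0 h, by signal over background. The steps from 0.5 to 1, 1 to 3 and 0.5 to 3 h gave 13, 15 and 1 calls.

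With log2(value + 1) the calls were 3, 7 and 0, at adjusted p 0.01 they were 0, 0 and 0, by a stricter threshold, and with only the 2 groups compared 0, 0 and 0. Without scaling 20 were called from 0.5 to 1 h, and with the background subtracted 0 from 0.5 to 3 h. The replicate number as a block gave 7, 13 and 2 calls, although the numbers share only a number (correlations of -0.219 to 0.226, 4 of 21 over 0.1). Leaving out 1 array in turn gave 0 to 27, 0 to 21 and 0 to 10 calls. From 0.5 to 1 h the count was 3 with either array of 24 h left out, 8 with either of 12 h, 21 with either of 0 h and 27 with replicate 1 of 0.5 h left out. From 0.5 to 3 h it was 0 without replicate 2 of 0.5 h, replicate 1 of 3 h or any array of 6 or 24 h, 3 without either 0 h array and 10 without replicate 2 of 3 h.

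Median differences between late times, not tested, were 0.15 to 0.29 for 12 h from 6 h, -0.36 to -0.27 for 24 h from 12 h and -0.19 to 0.02 for 24 h from 6 h without 1 array. The last, -0.06 with all arrays, turned its sign without replicate 1 of 6 h (0.017). No other difference between late times did in the settings tried. The median change from 0.5 to 3 h, 0.08 with all arrays, was -0.14 without replicate 1 of 0.5 h and -0.11 without replicate 1 of 3 h. With log2(value + 64) the difference of 24 h from 12 h was -0.20.

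The rule took 698 probe sets with log2(value + 1), 88 with log2(value + 64), 406 with the background subtracted, 78 at a minimum of 1 and 481 on replicate 2 alone. Without 1 array it took 209 to 519, with 519 without replicate 1 of 0 h. Named counterparts numbered 47 with log2(value + 1), 14 with log2(value + 64), 8 at a minimum of 1, 48 on replicate 2 alone, and 27 to 50 without 1 array, with 50 without replicate 1 of 0 h.

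Medians of the members at 6, 12 and 24 h were 1.52, 1.68 and 1.36 with log2(value + 1), 0.78, 0.98 and 0.69 with log2(value + 64), and 1.33, 1.49 and 1.16 with the background subtracted. At 3 h log2(value + 64) gave 0.52. Members above the median level had 1.46 at 12 h and 1.12 at 24 h, and those below it 1.24 at 12 h. Without 1 array the medians were 0.54 to 0.96 at 0.5 h, 0.10 to 0.30 at 1 h, 0.60 to 0.92 at 3 h, 1.07 to 1.29 at 6 h, 1.30 to 1.45 at 12 h and 0.99 to 1.12 at 24 h. A larger constant inside the logarithm shrinks differences of dim probe sets by construction, and for the other settings the cause was not tested. Subtracting the background and splitting members by level were chosen after seeing the data. The limit of 300 was not reached, so dropping it gave no other value.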
